A study of Mus musculus with 45 samples.

Results

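Gene expression in the colonic epithelium was compared between mice eating a high-fat diet at collection and mice eating a low-fat diet at collection, whatever they had eaten before. The comparison used the 15 RNA-seq libraries of the 45 samples of the series, 1 library per mouse. All mice were male C57BL/6J and entered the study at 6 weeks of age. Obese mice (HF, 5 libraries) ate a diet with 60% fat, based on lard, for 20 weeks. The 10 low-fat-fed libraries came from control mice (LF, 5 libraries), which ate a diet with 10% fat for 20 weeks, and formerly obese mice (HF-LF, 5 libraries), which ate the 60% fat diet for 15 weeks and then the 10% fat diet for 5 weeks. The obese group was set against the equal-weight mean of the control and formerly obese groups in a single fit of all libraries. Obese mice differed from both other groups in body weight as well as in the food in the gut, so diet and weight cannot be told apart, and no female mice were studied.

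The colonic epithelium is a single layer of cells renewed from stem cells at the base of the crypts. It holds absorptive colonocytes, mucus-producing goblet cells and hormone-producing enteroendocrine cells. Colonocytes take up salt, water and the short-chain fatty acids made by gut bacteria, burn the latter as fuel, and break down foreign compounds. Dietary fat is known to reach intestinal cells as fatty acids that enter membranes, stores and oxidation and that act on lipid-sensing transcription factors.

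Each library held 15230391 to 22762095 gene counts, and 15463 to 16083 gene entries had at least 1 count. The mean total of obese libraries minus that of low-fat-fed libraries was -929590 counts (two-sided exact permutation p = 0.439). By group, totals were 15591904 to 16749096 in obese, 15230391 to 16718408 in control and 16114562 to 22762095 in formerly obese libraries. The difference of the formerly obese group in depth was not tested. Summed markers of epithelium, in CPM (each count scaled to a common library size, with TMM factors), ranged from 14130 to 16700 in control, 14830 to 15790 in obese and 14630 to 15330 in formerly obese libraries. Of 53 markers of smooth muscle, fibroblasts, endothelium, immune cells, adipocytes, enteric neurons and glia and pancreatic acinar cells, 16 had enough counts to be tested and none was called. Over all tested genes 1.14% were called, so no call is the likely count in 16 genes whether or not these cells differed. The marker lists summed to at most 56.48 CPM in a library, other than the acinar list, which summed to 285 to 613.1 CPM and whose single tested member was Cela1. The adipocyte markers Lep, Plin1 and Retn, the glial marker Sox10 and the acinar markers Amy2a5, Cpa1, Pnlip, Prss1 and Try4 had no count in any library. The adipocyte list, which also held Adipoq, Cfd, Fabp4 and Cidea, summed to at most 0.5603 CPM in a library. Immune markers summed to 28.73 to 56.48 CPM in obese, 21.78 to 37.66 in control and 24.7 to 48.59 in formerly obese libraries. Fibroblast markers summed to 21.99 to 28.36 CPM in obese, 12.86 to 24.59 in control and 19.23 to 40.43 in formerly obese libraries. The part of immune cells and fibroblasts in the results was not tested. In bulk RNA, fewer cells of a type and less RNA per cell cannot be told apart.

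Set against the mean of the low-fat-fed groups, obese mice differed in 148 called genes. Of these, 43 did not pass both single comparisons described below. Genes counted as called at a fold change over 1.2, a p-value under 0.01 and a Benjamini-Hochberg adjusted p under 0.25 (edgeR), cutoffs that the study also used. An adjusted p under 0.25 allows a share of false calls of up to about 0.25. Of 12961 gene entries tested, 89 (0.687%) were higher and 59 (0.455%) were lower in obese mice, together 1.14%. Among called genes with a mean of at least 50 counts, the largest changes were a fall of Scd1, which makes monounsaturated fatty acids, and a rise of Creb3l3, a lipid-responsive transcription factor. Changes were mostly small, with a median absolute log2 fold change of 0.44 among called genes. At an adjusted p under 0.05, 10 genes remained, 6 higher and 4 lower. The count rested on few mice: without obese replicate 1, 3 or 5 it was 21, 23 or 17, without obese replicate 4 it was 89, without formerly obese replicate 5 it was 79, and without formerly obese replicate 1 it was 233. All 148 genes kept their direction in each of the 15 fits with a library left out, and between 121 and 148 of them kept p under 0.01. The genes were picked at that p on the same libraries, so this is largely set by the selection and is not independent support. Of the 53 called genes named here, 13 were called in each of these fits, namely Scd1, Ccnd2, Ccbl2, Gsta4, Pcdh17, Fhl2, Pmepa1, Trf, Sdsl, March3, Slc16a12, Lyz1 and Slc4a11, and the others lost the call in at least 1 of them.

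**Figure D1:**
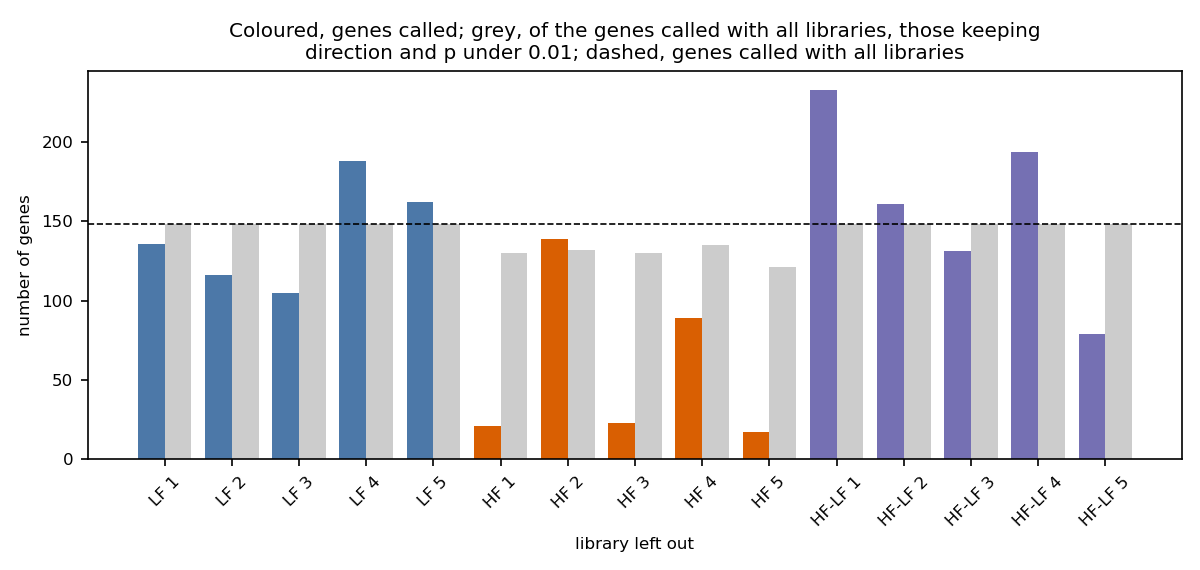
Number of genes (y axis) when each of the 15 libraries (x axis) was left out of the fit. Coloured bars give genes called, and the dashed line marks 148. Grey bars give those of the 148 originally called genes that kept their direction and p under 0.01. The coloured bars drop to 17 to 23 without obese replicate 1, 3 or 5, and no grey bar is below 121. The 148 genes were picked at p under 0.01 on these libraries, so the grey bars are not independent support.

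Of the 148 genes, 105 (0.81% of those tested) followed the diet at collection, which here means that obese mice also differed, in the same direction and at an unadjusted p under 0.05, from control mice and from formerly obese mice taken singly. These were 55 genes higher (0.424%) and 50 lower (0.386%) in obese mice. The pair of single comparisons share the obese libraries and are not independent of each other or of the call. The other 43 called genes passed one single comparison only, 17 against control mice and 26 against formerly obese mice. In 21 called genes, 11 higher and 10 lower, all 5 obese libraries lay outside the range of all 10 low-fat-fed libraries. All 21 were among the 105. Over all tested genes this separation occurred in 38 (0.293%). The share of 14.2% among called genes comes from the libraries used for the calls. It is therefore largely set by the selection and is not independent support. A gene with such separation also tends to pass both single comparisons.

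Genes of fat handling that followed the current diet differed in direction. Scd1, the stearoyl-CoA desaturase that introduces a double bond into saturated fatty acids, measured 18.6, 18.7, 17.8, 22.9 and 18.7 CPM in the obese libraries. Control libraries measured 45.5, 57.1, 50.3, 61.8 and 65.9 CPM, and formerly obese libraries 40.9, 35.8, 67.3, 59.4 and 41.2 CPM. No obese library reached the lowest low-fat-fed library, and the formerly obese libraries spanned the control range. The log2 fold change was -1.44 ± 0.14 (SE; edgeR adjusted p = 0.000133). It was the single called gene (5.56%) among 18 tested genes of fatty acid synthesis and desaturation, against 1.14% of all tested genes. That 1.14% is the share to set beside the other list counts below. The lists were chosen with earlier results of these data known, so a greater share can come from that choice. The median log2 fold change of the list was -0.07 against 0.001 for all tested genes. Scd2, the nearest relative of Scd1, had a log2 fold change of -0.23 (adjusted p = 0.465) and Fasn, the fatty acid synthase, 0.07 (adjusted p = 0.737).

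Creb3l3 encodes a membrane-bound transcription factor of liver and gut that is active in lipid metabolism. It measured 11.7, 9.16, 13.6, 12.3 and 14.8 CPM in obese libraries and 3.28 to 4.79 CPM in control libraries. Formerly obese libraries measured 15.2, 3.44, 7.25, 5.31 and 2.71 CPM, so that replicate 1 of that group exceeded every obese library and the groups overlapped. The log2 fold change was 1.23 ± 0.27 (SE; adjusted p = 0.13). Creb3l3 was the only called gene among 17 tested PPAR targets, a list with a median of 0.006. None of 22 genes of mitochondrial fat oxidation and ketogenesis, 15 of peroxisomal fat oxidation, 23 of cholesterol synthesis and uptake and 14 of fat absorption was called, with medians of 0.005, 0.03, 0.03 and -0.05.

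Lpcat1, an acyltransferase that remodels phosphatidylcholine, fell. It measured 8.73 to 10.7 CPM in obese, 13.5 to 15.6 CPM in control and 8.68 to 13.3 CPM in formerly obese libraries, with a log2 fold change of -0.43 ± 0.09 (SE; adjusted p = 0.13). Obese libraries were below all control libraries and overlapped the formerly obese ones. It was the one called gene of 18 of phospholipid synthesis and remodelling. Lpcat4, a relative that the study picked on these libraries, had a log2 fold change of 0.29 (adjusted p = 0.629), with 0.59 against control and -0.02 against formerly obese mice.

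Single genes of the cell cycle, insulin signalling and gluconeogenesis fell. Ccnd2, which encodes cyclin D2, a driver of entry into the cell cycle, measured 244, 230, 236, 218 and 221 CPM in obese libraries. It measured 293 to 354 CPM in control and 271 to 356 CPM in formerly obese libraries. The groups did not overlap, and the log2 fold change was -0.45 ± 0.06 (SE; adjusted p = 0.00437). Of 27 cell cycle genes it alone was called, 20 had a negative fold change, and the median was -0.07. Over all 12961 tested genes, 6445 had a negative fold change. The relatives of Ccnd2, Ccnd1 and Ccnd3, had log2 fold changes of 0.08 (adjusted p = 0.734) and 0.07 (adjusted p = 0.633).

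Irs2 and Irs1 encode adaptor proteins that carry the signal of the insulin and IGF receptors. Irs2 measured 15, 21.6, 14.8, 16.9 and 17.2 CPM in obese libraries against 16.2 to 27.6 in control and 20.5 to 29.6 in formerly obese libraries. Irs1 measured 4.8 to 9.12 CPM in obese, 7.75 to 11.6 in control and 8.36 to 9.2 in formerly obese libraries. Both overlapped between groups, with log2 fold changes of -0.50 ± 0.12 (SE; adjusted p = 0.138) for Irs2 and -0.43 ± 0.13 (SE; adjusted p = 0.227) for Irs1. They were the called genes among 16 of insulin and IGF signalling, whose median was 0.02. The receptor gene Insr had a log2 fold change of -0.11 (adjusted p = 0.547). Pck1, the gluconeogenic enzyme that makes phosphoenolpyruvate, fell from 333 ± 56.3 CPM in control and 264 ± 42.1 CPM in formerly obese to 216 ± 39.9 CPM in obese mice (SD, n = 5 each). Its log2 fold change was -0.45 ± 0.12 (SE; adjusted p = 0.158).

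Of the genes that detoxify foreign or reactive compounds, Gsta4, Gstt1, Ephx1 and Cyp2d22 fell. Gsta4, a glutathione transferase that removes the lipid peroxidation product 4-hydroxynonenal, measured 48.5, 43.9, 45.8, 48.7 and 42.9 CPM in obese libraries. It measured 53.5 to 69.4 CPM in control and 50.3 to 64.5 CPM in formerly obese libraries, without overlap, and its log2 fold change was -0.37 ± 0.06 (SE; adjusted p = 0.0376). Gstt1, another glutathione transferase, measured 19.4 to 28.2 CPM in obese and 22.5 to 41 CPM in low-fat-fed libraries. Its log2 fold change was -0.45 ± 0.12 (SE; adjusted p = 0.195). Of 31 tested genes of xenobiotic metabolism, 26 had a negative fold change, 3 were called lower and none higher, and the median was -0.12 (-0.13 against control and -0.15 against formerly obese mice). Of all 12961 tested genes, 6445 had a negative fold change and 0.455% were called lower. The third called member of the list, Ephx1, an epoxide hydrolase, measured 18 to 21.7 CPM in obese and 17 to 23.1 CPM in formerly obese against 25.8 to 30.8 CPM in control libraries, and did not follow the current diet. Cyp2d22, a cytochrome P450 outside the list, measured 21.2 to 26.4 CPM in obese and 26.9 to 38.6 CPM in low-fat-fed libraries (log2 fold change -0.35 ± 0.08, SE; adjusted p = 0.132). Glutathione transferases and cytochromes P450 are families of similar genes, and how reads shared by copies were counted is not given in the sources used here.

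Further genes with the smallest p-values among the lower ones had varied roles. Ccbl2, a kynurenine aminotransferase, measured 8.86, 10, 9.14, 11.2 and 10.2 CPM in obese libraries against 12.3 to 14.3 CPM in the low-fat-fed ones, without overlap. Its log2 fold change was -0.39 ± 0.06 (SE; adjusted p = 0.023). Lifr, the receptor of leukaemia inhibitory factor, fell by 0.63 ± 0.12 on the log2 scale (SE; adjusted p = 0.0765). Mptx1, a mucosal pentraxin with similar copies whose reads may be shared, measured 1326 to 2066 CPM in obese and 1898 to 3468 CPM in low-fat-fed libraries (log2 fold change -0.66 ± 0.15, SE; adjusted p = 0.133). Scin, an actin-severing protein, fell by 0.31 ± 0.07 (SE; adjusted p = 0.133). H2-Q10, an MHC class I gene with near-identical copies whose reads may be shared, had a log2 fold change of -1.06, and Hsbp1l1 and 9830001H06Rik of -0.56 and -0.58. Among the genes not reached by the naming rule and picked here after their values were seen, Idh2, the mitochondrial isocitrate dehydrogenase, measured 127 to 140 CPM in obese and 142 to 190 CPM in low-fat-fed libraries (log2 fold change -0.26; adjusted p = 0.138).

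**Figure D2:**
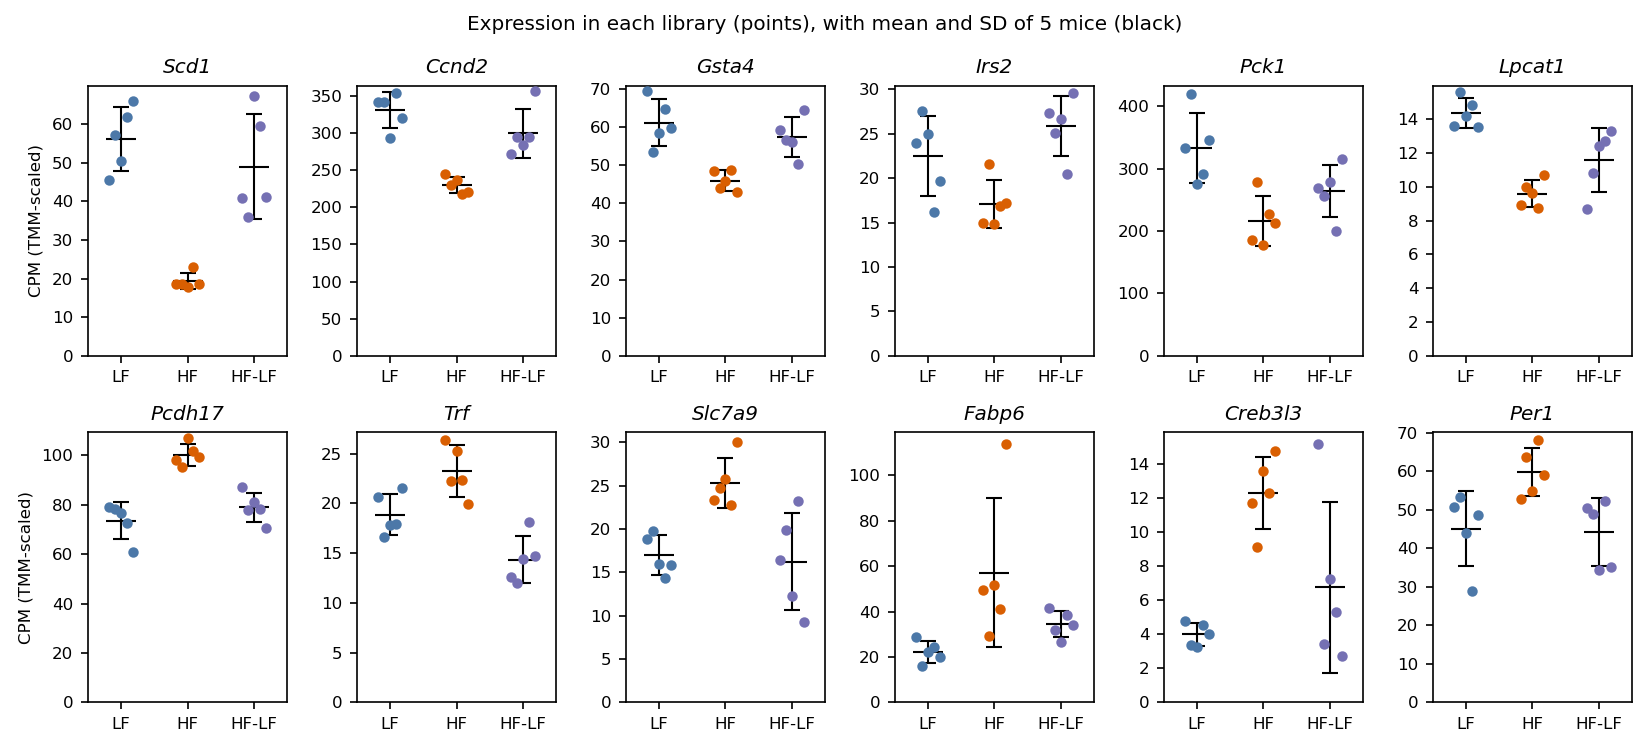
CPM after TMM scaling (y axes, from 0) of 12 genes in each library, by group (x axes: LF control, HF obese, HF-LF formerly obese). Points are mice, black lines the mean and SD of 5; Scd1, Ccnd2, Gsta4 and Pcdh17 show no overlap between HF and the low-fat-fed groups, whereas in the other 8 genes libraries of HF and of a low-fat-fed group overlap.

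Among the higher genes, Pcdh17 had the smallest p-value at a mean of 50 counts or more. It encodes a protocadherin, a cell adhesion protein, and measured 98, 95.4, 107, 102 and 99.2 CPM in obese libraries. Control libraries measured 61 to 79 CPM and formerly obese libraries 70.8 to 87.1 CPM, without overlap, and the log2 fold change was 0.39 ± 0.06 (SE; adjusted p = 0.01). Fhl2, a LIM-domain cofactor of transcription, measured 14.1 to 15.1 CPM in obese and 10.8 to 13.1 CPM in low-fat-fed libraries (log2 fold change 0.34 ± 0.06, SE; adjusted p = 0.0376). Pmepa1, an inhibitor of TGF-beta signalling, measured 15 to 19.5 CPM in obese and 10.3 to 14.7 CPM in low-fat-fed libraries, with a log2 fold change of 0.45 ± 0.08 (SE; adjusted p = 0.0458). In these genes too every obese mouse exceeded every low-fat-fed mouse.

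Higher list members included genes of transport and binding proteins. Trf, which encodes the iron carrier transferrin, measured 26.4, 22.2, 25.3, 22.3 and 19.9 CPM in obese libraries. It measured 16.6 to 21.5 CPM in control and 12 to 18.1 CPM in formerly obese libraries, so that 1 obese library lay within the control range. Its log2 fold change was 0.49 ± 0.09 (SE; adjusted p = 0.062), and formerly obese mice were lower than control mice by 0.39 (unadjusted p = 0.00248). It was the one called gene of 14 of iron handling, whose median was 0.05. Slc7a9, the light chain of the transporter of cystine and dibasic amino acids, measured 22.8 to 30.1 CPM in obese, 14.3 to 19.8 in control and 9.32 to 23.2 in formerly obese libraries (log2 fold change 0.61 ± 0.15, SE; adjusted p = 0.144). It was the only called gene among 16 amino acid transporters, with a median of 0.08. Slc7a9 is also among genes that the study picked on these libraries.

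Fabp6, the bile acid binding protein best known from the ileum, measured 49.7, 29.3, 51.8, 41.1 and 114 CPM in obese libraries. Control libraries measured 16.2 to 28.7 CPM and formerly obese libraries 26.8 to 41.4 CPM. Obese replicate 5 stood at more than any other library, and 2 obese libraries lay within the formerly obese range. The log2 fold change was 1.04 ± 0.22 (SE; adjusted p = 0.13), and without obese replicate 5 it was 0.63 and the call was lost (adjusted p = 0.292). Of 8 bile acid handling genes it alone was called, and their median was -0.05. Summed CPM of 14 genes of small intestine and brush border was 1491 to 1682 in obese, 1447 to 1559 in control and 1702 to 1788 in formerly obese libraries. The posterior Hox genes, which mark position along the gut, summed to 569.1 to 692.1 CPM in obese, 632.7 to 753.5 in control and 491.5 to 608.2 in formerly obese libraries. The part of these differences in the result for Fabp6 was not tested.

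Per1, a repressor of the circadian clock, measured 52.9, 63.8, 55, 68.1 and 58.9 CPM in obese libraries. It measured 28.9 to 53.3 CPM in control and 34.4 to 52.4 CPM in formerly obese libraries, with 1 obese library inside the control range. Its log2 fold change was 0.42 ± 0.13 (SE; adjusted p = 0.231). Of 16 clock genes it alone was called. The median of the list was 0.06, Per2 stood at 0.26 (adjusted p = 0.637) and Arntl, the clock activator, at -0.27 (adjusted p = 0.617). The hour of collection of each mouse is not given in the sources used here.

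The remaining higher genes with the smallest p-values were Sdsl, an enzyme related to serine dehydratase, March3, a membrane ubiquitin ligase, Bola1, a mitochondrial protein, Irf2bpl, a nuclear protein, and Lama3, a laminin chain of the basement membrane. Their log2 fold changes were 0.39, 0.55, 0.50, 0.32 and 0.54, with adjusted p-values from 0.068 to 0.13. For Sdsl, March3 and Irf2bpl no obese library overlapped a low-fat-fed one. Of genes outside the naming rule, picked after their values were seen, Lyz1, a lysozyme of Paneth cells, had the largest fold change of all called genes. It measured 2.39, 2.08, 4.42, 3.06 and 4.02 CPM in obese libraries and 0.291 to 1.64 CPM in low-fat-fed libraries (log2 fold change 1.88 ± 0.29, SE; adjusted p = 0.0193). These levels correspond to a mean of 27.4 counts per library. The neighbouring, near-identical Lyz2 measured 2.2 to 4.62 CPM in obese and 2.09 to 6.16 CPM in low-fat-fed libraries, and reads shared by the pair could be assigned to either. Slc4a11, a membrane transporter, rose by 1.43 ± 0.23 on the log2 scale (SE) at a mean of 14.3 counts. Itln1, an intelectin of goblet and Paneth cells, had a log2 fold change of -1.26 ± 0.28 (SE; adjusted p = 0.13). Tfeb, a regulator of lysosomal genes, measured 31.1 to 35.3 CPM in obese and 20.5 to 30.8 CPM in low-fat-fed libraries.

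**Figure D3:**
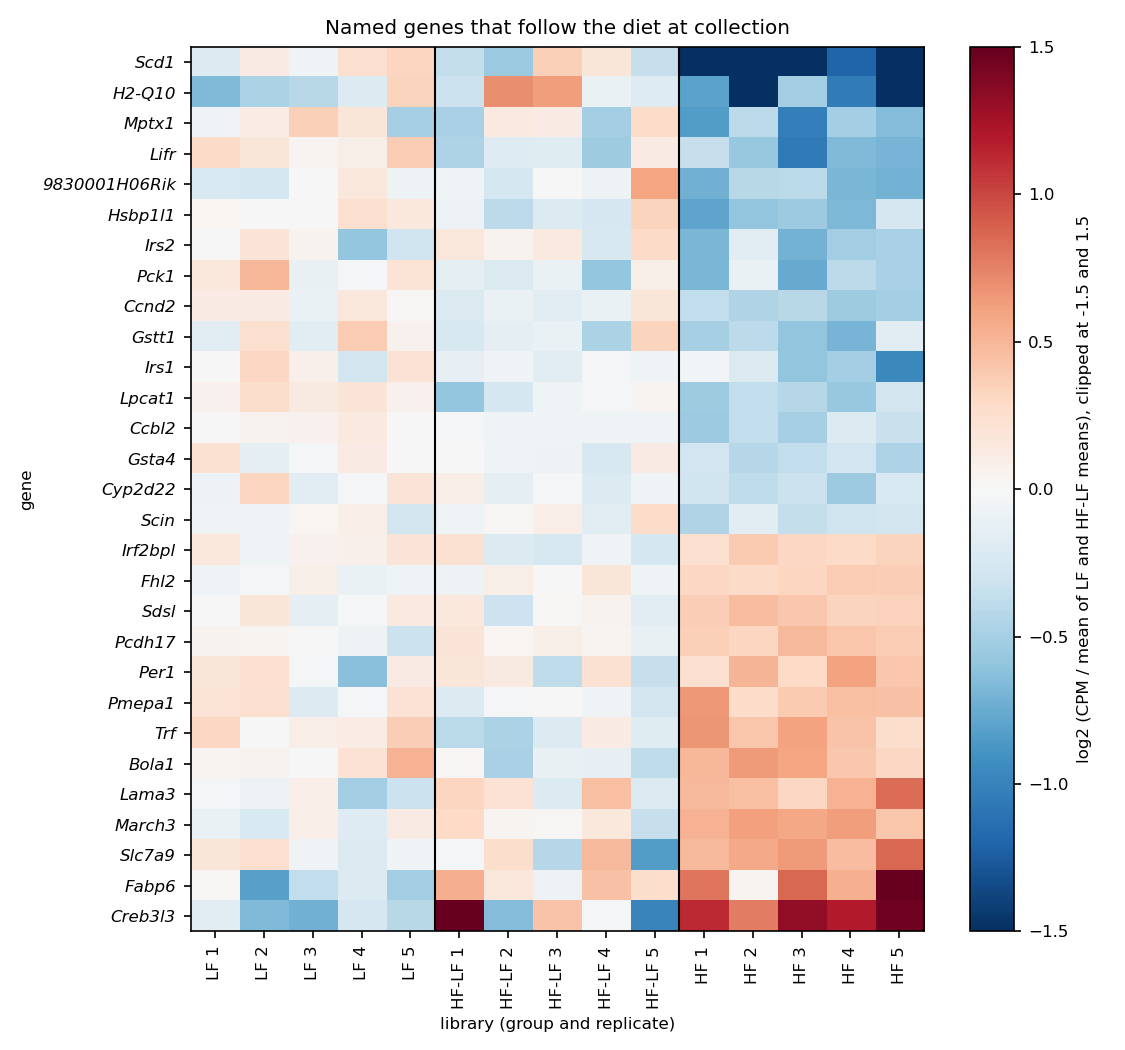
The 29 genes that follow the diet at collection and that the naming rule selects (rows, ordered by fold change) in each library (columns). Colour is the log2 ratio of CPM to the mean of the control and formerly obese means, clipped at -1.5 and 1.5; obese libraries are blue in the lower genes at the top and red in the higher genes below, with Fabp6 in obese replicate 2 and Irs1 in obese replicate 1 near 0, and Creb3l3 in formerly obese replicate 1 as high as in obese mice.

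A minority of the called genes differed between control and formerly obese mice as well. The contrast of formerly obese minus control mice called 482 genes (3.72% of those tested), 25 of them (16.9%) among the 148 and 4 among the 105. The median absolute log2 difference between these groups was 0.22 for the 148 genes, 0.15 for the 105 and 0.09 for all tested genes. In 101 of the 148 genes and 89 of the 105, the unadjusted p of this contrast was 0.05 or more. Following the diet requires a difference from both low-fat-fed groups, which by itself limits the difference between them. The smaller values of the 105 are therefore partly set by that definition. The 25 genes divided into 11 with the same sign in both contrasts and 14 with opposite signs.

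The called genes with the smallest p for formerly obese minus control mice were Slc16a12, Ephx1, Gm2061, Mgll and Rn45s. None followed the current diet, which the definition of following makes likely. Slc16a12, of the monocarboxylate transporter family, measured 8.79 to 11.2 CPM in obese, 9.06 to 10.4 in control and 3.96 to 5.71 in formerly obese libraries. Mgll, which releases fatty acids from monoglycerides, measured 36.6 to 53.6 CPM in obese, 36.2 to 50.7 in formerly obese and 20.5 to 30.3 in control libraries. Gm2061 had a mean of 3.25 ± 0.949 CPM in obese, 2.84 ± 0.883 in formerly obese and 1.12 ± 0.358 in control mice (SD, n = 5 each). Rn45s, a ribosomal RNA precursor that poly(A) selection should largely remove, took 0.283% to 0.458% of counts in obese, 0.26% to 0.404% in control and 0.179% to 0.259% in formerly obese libraries.

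Further members of the lists were called without following the current diet. Dgat2, which completes triglyceride synthesis, rose by 0.34, with 0.53 against control and 0.16 against formerly obese mice. With Mgll it was called among 17 genes of triglyceride storage and lipolysis, whose median was -0.01. Duox2, an oxidase that makes hydrogen peroxide, and its maturation factor Duoxa2 rose by 0.41 and 0.50, with 0.67 for each against control mice and 0.15 and 0.34 against formerly obese mice. They were the called genes of 13 antimicrobial and inflammation genes. Enpep, an aminopeptidase, and Pfkfb3, which makes an activator of glycolysis, rose by 0.53 and 0.63, and Pfkm, a phosphofructokinase, fell by 0.27. In contrast, the chloride-bicarbonate exchanger Slc26a3 measured 854 to 1135 CPM in obese and 818 to 1310 CPM in control, but 1353 to 1763 CPM in formerly obese libraries. Junb, an AP-1 transcription factor, had a log2 fold change of 0.58 against formerly obese and 0.11 against control mice.

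**Figure D4:**
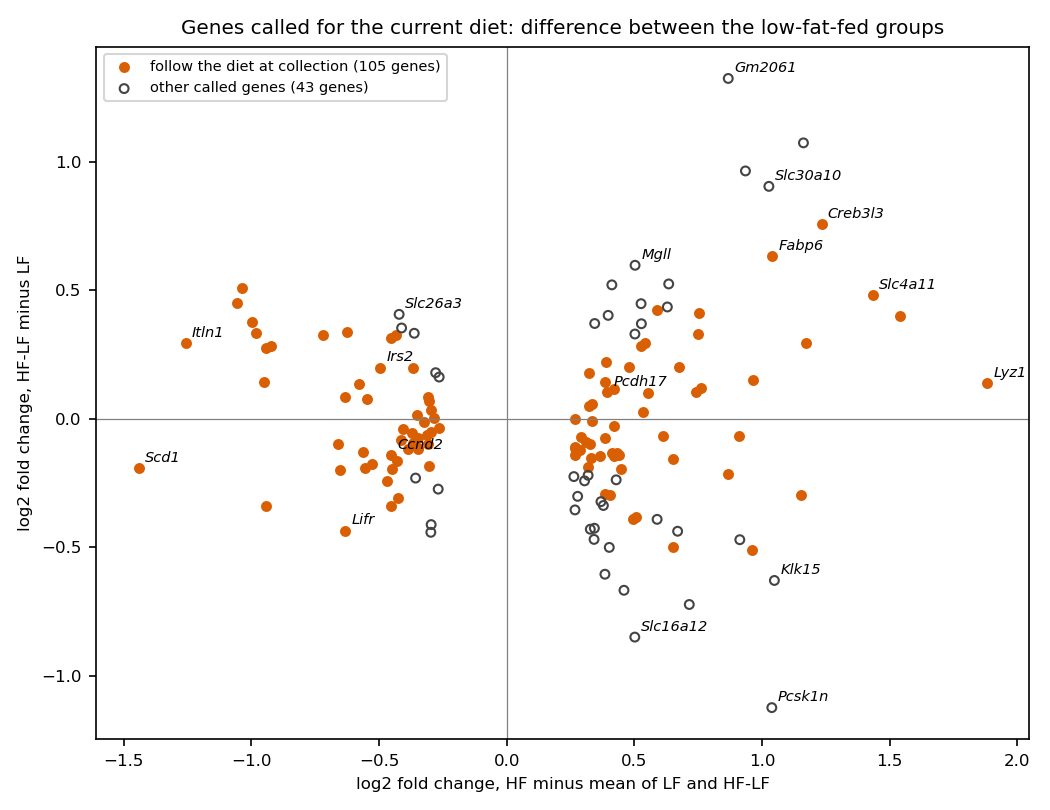
The 148 called genes by log2 fold change of obese mice against the mean of the low-fat-fed groups (x axis) and of formerly obese minus control mice (y axis). Filled points, the 105 genes that follow the diet at collection, lie mostly near 0 on the y axis (median absolute value 0.15). Open points, the other 43, lie further out, from Gm2061 at 1.32 to Pcsk1n at -1.12. The definition of following limits the y values, so this contrast of filled and open points is partly set by it.

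For short-chain and medium-chain fatty acid use, the study singled out lower expression of Acss1, Acss2, Acsm3 and Acadsb on these libraries. It also named higher Slc27a2 and Acaa1b for long-chain fatty acids, and lower Pdp1 and Slc2a4 for glucose. Of these genes, Acss1 and Acadsb passed both p cutoffs but missed the fold cutoff. Acss1 measured 135 to 163 CPM in obese and 155 to 201 CPM in low-fat-fed libraries (log2 fold change -0.23; adjusted p = 0.158). Acadsb measured 29.5 to 32.9 CPM in obese and 32.2 to 41.3 CPM in low-fat-fed libraries (log2 fold change -0.25; adjusted p = 0.13). Acss2, Acsm3, Pdp1, Slc27a2 and Acaa1b had log2 fold changes of -0.13, -0.15, -0.14, 0.20 and 0.34, with adjusted p-values from 0.428 to 0.604. Against control mice alone these were -0.29, -0.28, -0.29, 0.40 and 0.67 (adjusted p from 0.0941 to 0.326), and against formerly obese mice alone 0.03, -0.02, 0.003, 0.01 and 0.01. Slc2a4, the insulin-regulated glucose transporter, had a log2 fold change of -0.92 (adjusted p = 0.321) at a mean of 28.7 counts. For Slc2a4 it was -1.14 against control mice (adjusted p = 0.252) and -0.69 against formerly obese mice (adjusted p = 0.449). None of 13 genes of short-chain fatty acid uptake and use was called, and their median was -0.14.

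Cell type genes were taken singly and by list. Muc2, the main goblet cell mucin, Chga, an enteroendocrine granule protein, Sis, a brush border disaccharidase, and Lgr5 and Ascl2, which mark stem cells, had log2 fold changes of 0.04, 0.15, 0.04, 0.09 and 0.11 and adjusted p-values from 0.832 to 0.965. Those of Muc2, Chga and Sis changed sign in some fits without a single library. None of 13 goblet, 13 enteroendocrine and 6 tuft cell genes was called. With 1.14% of all tested genes called, no call is the likely count in lists this small. Ccnd2 was the called gene of 16 Wnt targets and stem cell genes (6.25%), and Slc26a3 that of 12 colonocyte genes (8.33%), whose median was -0.18. Fold changes were negative in 6 of 13 goblet, 10 of 13 enteroendocrine and 6 of 6 tuft cell genes. They were negative in 9 of 16 stem cell and 10 of 12 colonocyte genes, against 6445 of all 12961 tested genes. The 7 MHC class II genes had a median of -0.82, made of -0.10 against control and -1.60 against formerly obese mice, and none was called. In all, 23 called genes belonged to 17 of the 29 lists, and 12 lists held none, where 1.14% of all tested genes were called. The lists were chosen with earlier results of these data known, so these counts are not independent support.

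**Figure D5:**
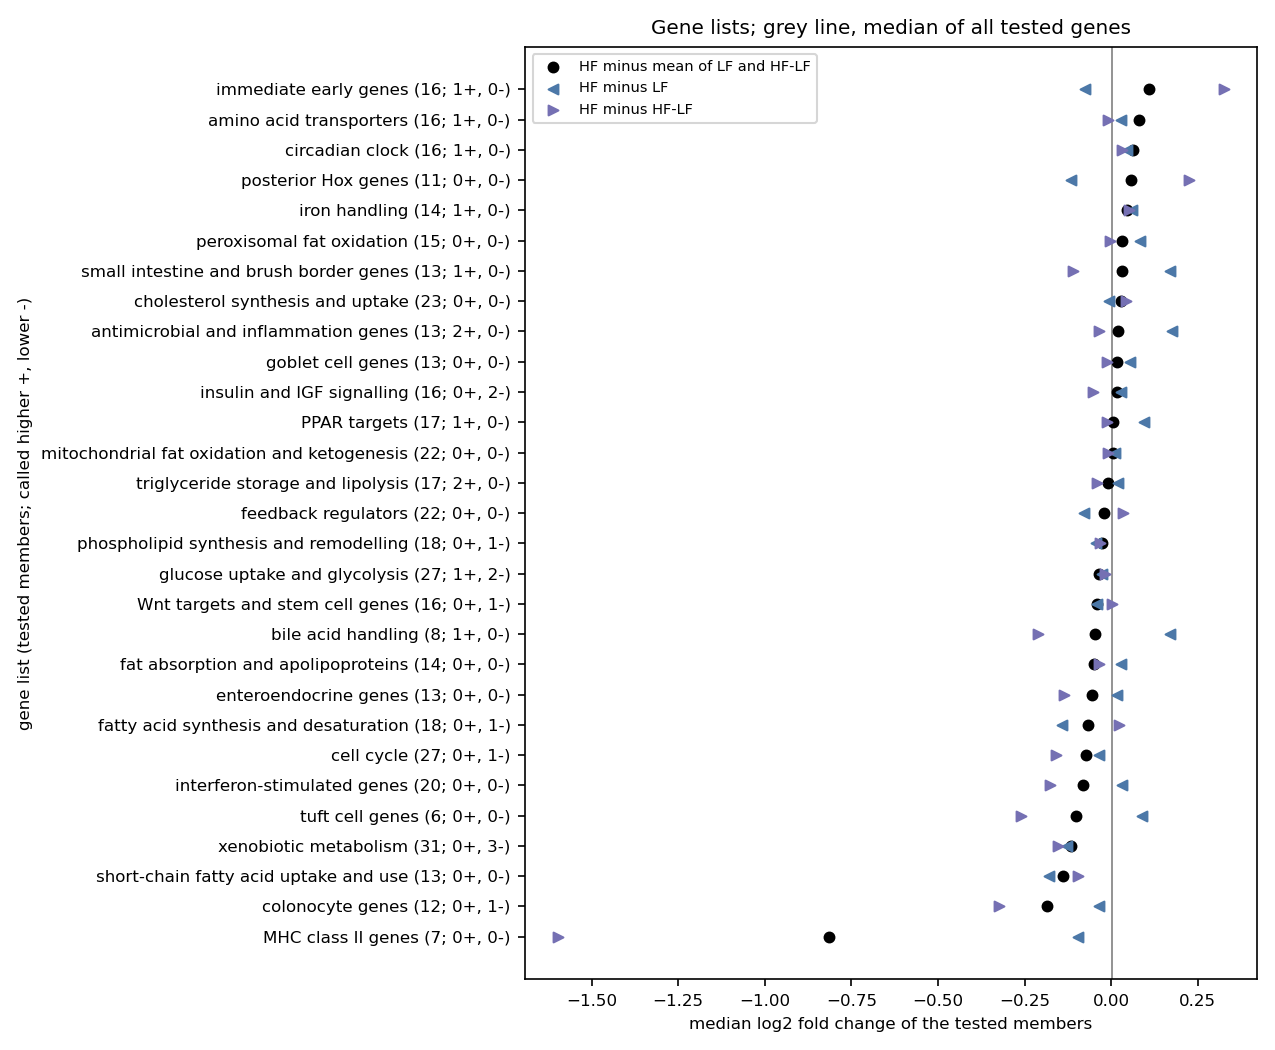
Median log2 fold change of the tested members of each of 29 gene lists (x axis) for obese mice against the mean of the low-fat-fed groups (circles), control mice (left triangles) and formerly obese mice (right triangles), which share the obese libraries. Labels give the tested members and how many were called higher (+) or lower (-); apart from MHC class II genes at -0.82, all circles lie between -0.18 and 0.11.

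Methylation was described beside expression from the authors' list of 8199 differentially methylated regions (DMRs) between obese and control mice, 4123 with more methylation in obese mice (hyper) and 4076 with less (hypo). It comes from whole-genome bisulfite sequencing, and formerly obese mice are not in it. Of the 148 called genes, 24 (16.2%) had a DMR within 10 kb of the gene start, against 1242 (9.58%) of all tested genes, a description with no test. They were 18 of 89 genes higher and 6 of 59 genes lower in obese mice. Near higher genes 11 had a hyper and 7 a hypo region, and near lower genes 5 and 1. The lower genes with a hyper region included Scd1, Irs2, Tmem252 and Cyp2c44, and higher genes with a hypo region included Fhl2, Trf, Bola1 and Irf2bpl. Itln1 was the lower gene with a hypo region, which lies inside the gene. Of the 5 lower genes with a region that follow the current diet (Scd1, Irs2, Tmem252, Cyp2c44 and Itln1), the regions of the first 3 are shown, picked after values were seen as hyper regions within 5 kb of the start, on the forward strand of GRCm38 with 40 bases on either side and each CG in capitals. The Scd1 region, chr19:44408541-44408547, lies 832 bases upstream of the gene start, in no RefSeq gene. The Tmem252 region, chr19:24673588-24673607, lies 401 bases upstream, in no RefSeq gene. Tmem252, named for its region after values were seen, measured 13.6 to 20.1 CPM in obese, 15.9 to 36 in control and 20.7 to 40.2 in formerly obese libraries (log2 fold change -0.72 ± 0.19, SE; adjusted p = 0.163). The Irs2 region, chr8:11003897-11003961, lies within an intron, 4469 bases downstream of the start.
Scd1: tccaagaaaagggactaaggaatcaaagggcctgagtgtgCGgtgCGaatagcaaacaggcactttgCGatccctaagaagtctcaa
Tmem252: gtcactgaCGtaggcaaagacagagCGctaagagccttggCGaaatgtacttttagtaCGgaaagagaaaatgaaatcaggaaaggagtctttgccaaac
Irs2: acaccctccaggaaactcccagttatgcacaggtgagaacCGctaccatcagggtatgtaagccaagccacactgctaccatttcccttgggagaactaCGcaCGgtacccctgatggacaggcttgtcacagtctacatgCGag
They hold 2, 2 and 3 CG sites respectively within the region itself.

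Promoters were searched for 3 motifs on both strands, in the RefSeq windows (GRCm38.p6) from 250 bases before to 50 bases after gene starts, counting a gene if any of its windows held the motif. Windows were matched for 105 of the 148 called and 10358 of the tested genes. CCAAT, the box bound by NF-Y, was in 29 of 62 higher (46.8%), 22 of 43 lower (51.2%) and 42.9% of all matched genes. CACGTG, the E-box bound by clock and MYC-type factors, was in 8 higher (12.9%), 7 lower (16.3%) and 11.7% of all. TCACNCCAC, a sterol response element type, was in 1 called gene, Fabp6, and in 1.39% of all. The upstream 250 bases of Pcdh17, the higher gene with the smallest p, of Fabp6 as the one called gene with the sterol-type motif, and of Per1 as the called clock gene are shown on the strand of the gene, with these motifs in capitals. They are chr14:84443313-84443562 (+), chr11:43601563-43601812 (-) and chr11:69098699-69098948 (+).
Pcdh17: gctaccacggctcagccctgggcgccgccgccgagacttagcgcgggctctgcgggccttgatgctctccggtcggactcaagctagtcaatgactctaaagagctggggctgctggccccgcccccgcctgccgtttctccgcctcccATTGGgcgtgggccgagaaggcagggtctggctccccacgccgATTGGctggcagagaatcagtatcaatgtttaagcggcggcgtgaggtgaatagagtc
Fabp6: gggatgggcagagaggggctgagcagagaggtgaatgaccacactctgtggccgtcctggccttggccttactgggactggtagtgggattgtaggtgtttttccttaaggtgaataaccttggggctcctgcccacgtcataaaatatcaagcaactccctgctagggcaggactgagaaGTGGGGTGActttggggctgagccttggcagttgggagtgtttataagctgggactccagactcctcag
Per1: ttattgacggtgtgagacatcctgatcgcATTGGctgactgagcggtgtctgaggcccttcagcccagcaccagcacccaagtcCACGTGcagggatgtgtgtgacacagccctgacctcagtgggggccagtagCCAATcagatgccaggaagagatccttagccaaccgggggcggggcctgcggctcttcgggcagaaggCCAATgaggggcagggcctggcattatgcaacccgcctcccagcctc
CCAAT occurs 2 times in the Pcdh17 window and 3 times in that of Per1, which also holds an E-box.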

How the data were processed

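RNA-seq of colonic epithelium was analysed from 15 libraries, grouped by the sample labels. Per the labels and the methods of the study, read pairs from stranded mRNA libraries were aligned to mm10 (TopHat2 2.0.4), and the authors deposited raw HTSeq counts per gene; strand mode and annotation release are not given in the sources used here, so overlapping and antisense genes are uncertain. Nothing in the labels names a sequencing batch. The deposited DMR list gives region positions per the file; the authors' tables of fold changes and p-values against control mice, and the amplicon methylation table, were not used.

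Of 24918 entries, 12961 passed filterByExpr. Counts were scaled by TMM and fitted with edgeR 4.0.16 (quasi-likelihood) in R 4.3.3, with group as the only term; p-values measure the spread between mice. CPM have no correction for gene length and were not compared between genes. The fit was tested on simulated data. No 2 replicates of a group were copies of each other, since the closest pair had a chi-square of 5.72 per degree of freedom.

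Members and gene lists were chosen with earlier results of these data known. For each direction, the 12 called genes of smallest p with at least 50 mean counts were named, then called members of the lists, 17 genes that the study picked on these libraries or used as cell type markers, and the 5 called genes with the smallest p between formerly obese and control mice; others, such as relatives of these (Scd2, Fasn, Ccnd1, Ccnd3, Insr, Per2, Arntl), were picked after their values were seen. Lists are described by counts and medians with no test. Alternatives were other scalings (DESeq2 size factors, upper quartile), filters (none, or 10 counts in every library), a replicate block, removal of the GC trend (GC content for 96.6% of tested genes, from GENCODE transcripts), DESeq2 1.42.0, stricter cutoffs, merged low-fat-fed groups and each library left out.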

Additional observations from a re-analysis of the deposited data

Results flagged for a closer look

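A library was flagged when its gap to the nearest of the other 4 in its group, divided by the range of the group, exceeded Dixon's critical value for 5 samples. Of 171 groups examined, over the genes named by the rule and the library totals, 13 were flagged, where about 9 would be at 1 in 20.

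Obese libraries were flagged in 3 genes. Scd1 measured 22.9 CPM in obese replicate 4 against 17.8 to 18.7 in the others (gap ratio 0.809), still below every low-fat-fed library. Fabp6 measured 114 CPM in obese replicate 5 against 29.3 to 51.8 (0.733). Pfkm measured 21.4 CPM in obese replicate 2 against 17.4 to 18.3 (0.779).

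Formerly obese replicate 5 was the high library for 4 genes, Ccnd2 (356 against 271 to 294 CPM, 0.723), Acadsb (40.7 against 32.2 to 34.6, 0.721), 9830001H06Rik (13.6 against 7.52 to 8.98, 0.759) and Slc26a3 (1763 against 1353 to 1385, 0.922). Formerly obese replicate 1 was high for Mgll (50.7 against 36.2 to 37 CPM, 0.943) and low for Slc16a12 (3.96 against 5.31 to 5.71, 0.775).

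Control replicate 2 was high for Slc16a12 (10.4 against 9.06 to 9.42 CPM, 0.737) and Acss2 (272 against 232 to 240, 0.791) and low for Enpep (11.7 against 26.2 to 30.6, 0.768). Control replicate 4 was high for Slc2a4 (4.18 against 1.67 to 2.25 CPM, 0.77). No explanation was tested for any of these.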

How the results depend on the processing

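The 4 counts of the report were 148 genes called, 105 following the current diet, 21 called genes with obese libraries outside the low-fat-fed range, and 25 called genes also called between formerly obese and control mice. Without the fold cutoff and at an adjusted p under 0.05, they were 10, 9, 8 and 1. With the low-fat-fed libraries merged as 1 group, where the difference between control and formerly obese mice counts as error, 69 genes were called and 69 followed the diet. DESeq2 called 211 genes, 122 of them following, and 41 also called between formerly obese and control mice. With the replicate block they were 153, 108, 19 and 36. Same-numbered libraries correlated from -0.255 to 0.384, over 0.1 in 5 of 15 pairs. Of 15 libraries, 6 were closest to one of their own number. Whether the numbers pair the mice was not tested. The GC trend removed gave 127 called, 66 of them higher. With each library left out in turn, called genes ranged from 17 to 233, following genes from 16 to 141, separate genes from 12 to 32, and genes also called between the low-fat-fed groups from 4 to 39. The lowest counts came without obese replicate 5 (17 called, 16 following) and replicate 1 (12 separate), and 4 came without replicate 1 or 3; the highest came without formerly obese replicate 1 (233, 141 and 39) and, for separate genes, without control replicate 1 or formerly obese replicate 4 (32 each). The cause was not tested. Without the ribosomal entry Rn45s, an alternative chosen after seeing the data, 146 genes were called. Within 50 kb of the start, 39.9% of called genes had a DMR, against 34.8% of all tested. The difference in library totals was -308510 without the largest library (exact permutation p = 0.56).

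Of the 68 named genes with alternatives computed, 4 changed sign, none of them called. With each library left out, the log2 fold change ranged from -0.0933 to 0.1283 for Muc2, -0.0199 to 0.2185 for Chga, -0.0286 to 0.1109 for Sis and -0.0087 to 0.2366 for Lyz2, and that of Sis was -0.0101 with the low-fat-fed libraries merged. Of 53 called genes among them, 13 kept the call without each library, and 9 under all alternatives too: Scd1, Ccnd2, Pcdh17, Ccbl2, Gsta4, Fhl2, Pmepa1, Lyz1 and Slc4a11. Of the 15 not called, Acadsb gained a call in 3 fits that left out a library, and Slc2a4 with DESeq2.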
